A study of Homo sapiens with 2 samples.

Results

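Imprinted genes are expressed from the copy inherited from a single parent, and 10 of them, H19, KCNQ1OT1, SNRPN, MEST, PEG10, GRB10, PLAGL1, MEG3, PEG3 and L3MBTL1, were examined by whole-genome bisulfite sequencing in acute myeloid leukemia (AML) cells. Their regions were all CpG dinucleotides within 2 kb of any annotated transcription start site (TSS) of the gene, together with the upstream control region of H19 (chr11:2018000-2025000, hg19) and the control region of KCNQ1OT1 (chr11:2719900-2722300). They held 4602 of the 28217448 CpG dinucleotides listed, of which 4485 had more than 5 reads in both libraries. Bisulfite turns unmethylated cytosines into uracil and leaves methylated ones, so the share of reads that keep a cytosine is the methylation level of a CpG dinucleotide. OCI-AML3, an established AML cell line with a heterozygous missense mutation in the DNA methyltransferase DNMT3A, was compared with AML5 (named OCI-AML5 in its sample record), an established AML line that is wild type for DNMT3A. Each line gave 1 library from cells grown in DMEM with serum, with no replicate culture. Both are single lines, so the DNMT3A genotype and every other difference between the lines cannot be told apart. The tests below compare the reads of these libraries, not the genotypes.

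At an imprinted gene, methylation is laid down in the egg or the sperm on a control region and is kept on that parent's copy through later cell divisions. A cell then holds a methylated and an unmethylated copy side by side, and the mean level over both copies lies near the middle of the scale. In the embryo the zinc finger protein ZFP57 binds the letters TGCCGC on the methylated copy and brings in TRIM28, SETDB1 and DNMT1, which keep the mark. At H19 the insulator protein CTCF binds the unmethylated maternal copy of the control region and keeps the enhancers away from IGF2. Levels between 33 and 66% are called intermediate here. Counts per CpG dinucleotide do not show which copy a read came from, so an intermediate level does not tell a copy-specific mark from a mixture of cells.

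The CTCF sites of the H19 control region are shown because they are the part of an imprinting control region whose readout by a protein is best known. The core CTCF motif was searched on both strands of GRCh37, and the control region held 5 matches, all on the minus strand, which is the strand of H19. Capitals mark the match.
H19 site at chr11:2021188-2021221: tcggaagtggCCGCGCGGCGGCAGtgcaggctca
H19 site at chr11:2022000-2022033: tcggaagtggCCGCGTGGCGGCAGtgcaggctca
H19 site at chr11:2023433-2023466: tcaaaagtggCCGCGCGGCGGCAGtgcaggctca
H19 site at chr11:2023834-2023867: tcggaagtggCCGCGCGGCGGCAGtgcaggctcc
H19 site at chr11:2024239-2024272: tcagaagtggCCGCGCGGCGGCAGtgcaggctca
These 34-base sequences differed from each other by 1 to 3 bases, so reads from repeats of this kind are harder to place. Of 20085 windows of the same length around the start sites of protein-coding genes, 1.03% held at least 1 match.

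Stretches from SNRPN, MEST and PEG10 are shown because their islands were furthest apart between the lines. A stretch from GRB10 is shown because its island had equal means and unequal parts. Stretches from KCNQ1OT1 and PLAGL1 are shown because the mean levels of their islands were closer than at SNRPN, MEST and PEG10. For SNRPN, MEST and PEG10, on the plus strand, capitals mark each CpG dinucleotide. For GRB10, KCNQ1OT1 and PLAGL1, on the minus strand like the genes, capitals mark the letters bound by ZFP57, TGCCGC, or the same letters read on the other strand, GCGGCA. All are GRCh37 sequence, chosen outside untranslated regions.
SNRPN, chr15:25200891-25201040: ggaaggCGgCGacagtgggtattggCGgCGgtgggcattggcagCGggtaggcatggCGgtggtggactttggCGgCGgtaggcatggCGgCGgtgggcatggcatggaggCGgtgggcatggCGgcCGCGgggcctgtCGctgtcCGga
MEST, chr7:130131776-130131925: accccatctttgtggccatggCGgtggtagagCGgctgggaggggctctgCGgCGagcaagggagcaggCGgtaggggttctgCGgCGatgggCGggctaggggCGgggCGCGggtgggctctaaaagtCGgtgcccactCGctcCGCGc
PEG10, chr7:94285208-94285357: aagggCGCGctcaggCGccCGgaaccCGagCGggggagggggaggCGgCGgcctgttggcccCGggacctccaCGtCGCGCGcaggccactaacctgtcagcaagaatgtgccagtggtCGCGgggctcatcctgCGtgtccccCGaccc
GRB10, chr7:50849778-50849977: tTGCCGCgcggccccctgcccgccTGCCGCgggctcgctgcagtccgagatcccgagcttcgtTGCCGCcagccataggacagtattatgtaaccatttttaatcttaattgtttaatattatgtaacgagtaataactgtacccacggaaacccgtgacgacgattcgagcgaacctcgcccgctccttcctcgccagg
KCNQ1OT1, chr11:2720559-2720758: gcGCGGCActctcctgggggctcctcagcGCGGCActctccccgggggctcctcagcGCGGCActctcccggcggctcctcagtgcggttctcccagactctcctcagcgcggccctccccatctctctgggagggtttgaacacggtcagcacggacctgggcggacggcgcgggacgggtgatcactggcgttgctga
PLAGL1, chr6:144328971-144329170: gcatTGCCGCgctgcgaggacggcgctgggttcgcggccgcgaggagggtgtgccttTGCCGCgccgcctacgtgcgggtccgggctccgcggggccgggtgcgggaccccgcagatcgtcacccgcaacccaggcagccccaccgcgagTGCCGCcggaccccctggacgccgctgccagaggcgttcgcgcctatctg
The 16 CpG dinucleotides of the SNRPN stretch averaged 86.9% in the DNMT3A mutant line OCI-AML3 and 34.3% in AML5. The 15 of the MEST stretch averaged 65.4% and 5.15%. The 17 of the PEG10 stretch averaged 50.9% and 11.2%. In the GRB10 stretch the direction was the other way, with 65.4% in OCI-AML3 and 96.2% in AML5 at 21 CpG dinucleotides. The lines were within 4 percentage points of each other in the remaining pair, at 34.7% and 36.3% over 20 CpG dinucleotides of KCNQ1OT1 and at 33.8% and 30.01% over 31 of PLAGL1.

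The libraries held 902802339 calls (OCI-AML3) and 894828667 calls (AML5), with medians of 27 and 30 calls per nuclear CpG dinucleotide. Taking 3 calls as the smallest number that can be seen, the lowest share detectable at a median CpG dinucleotide was 11.1% and 10.0%. Mitochondrial DNA, which carries almost no methylation, was called methylated at 0.168% and 0.101% of its calls. Over all CpG dinucleotides covered in both lines, OCI-AML3 averaged 67.6% and AML5 75.4%. The imprinted gene regions were covered by 48.8 and 36.0 calls per CpG dinucleotide on average, which was 1.74 and 1.16 times the autosomal median of the respective line. Intervals are Wilson 95% intervals for counting error only, and calls on the same read or amplified from the same molecule are not independent.

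Taken over all 10 genes, the imprinted regions were at nearly the same level in both lines, OCI-AML3 averaging 60.2% ± 32.1 and AML5 61.6% ± 35.2 (SD over 4485 CpG dinucleotides). The small difference of the means was made up of large differences in both directions. Fisher's exact test on the calls of each CpG dinucleotide, with Benjamini-Hochberg adjustment over all 24454751 tested, called 1279 CpG dinucleotides of the imprinted regions, or 28.5%, where 18.5% of all nuclear CpG dinucleotides and 17.4% of those around all annotated start sites were called. Those lower in OCI-AML3 numbered 686, or 15.3%, close to 14.7% over all nuclear CpG dinucleotides and 13.2% around all start sites. Those higher in OCI-AML3 numbered 593, or 13.2%, against 3.86% over all nuclear CpG dinucleotides and 4.14% around all start sites. Levels were intermediate in both lines at 479 CpG dinucleotides (10.7%), compared with 2.01% around all start sites. Of the CpG dinucleotides around the imprinted genes, 30.3% were intermediate in OCI-AML3 and 21.9% in AML5, against 9.44% and 8.27% around all start sites.

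The calls higher in OCI-AML3 came mostly from 3 paternally expressed genes. At PEG10, 46.8% of tested CpG dinucleotides were higher in OCI-AML3 and 12.0% were lower. SNRPN had 43.0% higher and 7.48% lower, and MEST had 38.1% higher and 12.5% lower. The reverse was seen at H19, where 24.2% were lower in OCI-AML3 and 1.62% were higher. GRB10 had 21.3% lower and 6.03% higher, and L3MBTL1 had 18.5% and 3.79%. PEG3 had 17.4% lower and 10.3% higher, both above the shares around all start sites. At KCNQ1OT1 4.74% were lower, below the share around all start sites, and 7.11% were higher, above the 4.14% around all start sites. Both shares were small at PLAGL1 (7.19% lower and 1.12% higher), while MEG3 had 12.1% lower and 10.2% higher.

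CpG islands, the CpG-dense stretches in which most imprinting marks lie, were found from the reference sequence alone. The windows held 37 islands, of which 31 had at least 10 covered CpG dinucleotides. Of these, 3 were below 33% in both lines and 13 were above 66%, classes that held 34.2% and 48.8% of the 39117 islands near all annotated start sites. In 7 of the 31 (22.6%) the mean level was intermediate in both lines, compared with 3.67% of all start-site islands. They were 3 islands of H19, 2 of PLAGL1 and 2 of L3MBTL1. Taking each line alone, 11 islands (35.5%) were intermediate in OCI-AML3 and 9 (29.0%) in AML5, against 9.22% and 9.23% of all start-site islands. Just outside the limits lay the KCNQ1OT1 island, with 39.7% and 32.4%, the main GRB10 island, with 66.1% in both lines, and the outer PLAGL1 island, with 66.3% in AML5. The lines differed by at least 20 percentage points in 6 islands (19.4%), against 12.0% of all start-site islands. OCI-AML3 was the higher line in 4 of these, SNRPN, 2 of MEST and PEG10, where 3.04% of all start-site islands were higher by as much. It was the lower line in the other two, 1 of PLAGL1 and 1 of L3MBTL1, where 8.95% of all start-site islands were. OCI-AML3 was lower, by any amount, in 17 of the 31 islands and in 73.4% of all start-site islands. The median difference was -2.78 percentage points over the imprinted islands and -1.69 over all. Of the CpG dinucleotides in all start-site islands, 11.3% were called lower in OCI-AML3 and 5.69% higher. These are the shares to set beside the counts for single islands below.

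SNRPN encodes a protein of small nuclear ribonucleoproteins, lies in the Prader-Willi region of 15q, and is expressed from the paternal copy, its control region being methylated on the maternal copy. The island at its canonical start (chr15:25199951-25201217, spanning the first exon and its surroundings) was at 87.4% ± 15.7 in OCI-AML3 and at 41.6% ± 12.4 in AML5 (SD over its 82 CpG dinucleotides). As a share of all calls this was 87.9% (95% interval 86.8 to 88.9%) and 42.7% (40.9 to 44.5%). The test called 70 of the 82 CpG dinucleotides higher in OCI-AML3 and 0 lower. In AML5, 57 of them were intermediate, and in OCI-AML3 55 were above 90%. Blocks of 20 CpG dinucleotides through the start were at 85.0 to 91.3% in OCI-AML3 and at 29.7 to 52.2% in AML5. On the upstream side the order turned. The windows around start sites further upstream were at 56.8% and 53.2% in OCI-AML3 and 66.1% and 64.1% in AML5. Past the island on the downstream side OCI-AML3 stayed higher, at 84.1% against 46.4% in the block from chr15:25201713 to chr15:25201976. Depth did not stand out at the island, at 1.61 and 1.09 times the autosomal median, where the median of all start-site islands was 1.68 and 1.19.

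MEST, a paternally expressed gene of the alpha/beta hydrolase family on 7q, has its control region at the start of the main isoform. The island upstream of that start (chr7:130130114-130131602), which overlaps the antisense gene MESTIT1, was at 66.3% ± 14.9 in OCI-AML3 and 25.3% ± 31.9 in AML5 (84 CpG dinucleotides, 61 called higher in OCI-AML3 and 0 lower). The island at chr7:130131666-130132554, which holds the canonical start and part of the coding sequence, was at 66.6% ± 7.32 and 19.2% ± 22.7 (80 CpG dinucleotides, 66 higher and 0 lower). The wide SD in AML5 went with a low stretch that had an edge on either side. Blocks of 20 CpG dinucleotides between chr7:130130817 and chr7:130132111 were at 4.26 to 8.99% in AML5. On the 5′ side, AML5 was at 86.5% from chr7:130129209 and at 47.9% from chr7:130130378. The next block on the 3′ side was at 21.1%, and the one after it at 64.2%. In OCI-AML3 the 5 blocks of the low stretch were at 59.3 to 64.7%. The neighbouring island at chr7:130132558-130133164 was at 84.7% and 83.6%. The island at the upstream isoforms (chr7:130125874-130126978) was at 24.7% and 20.9%, although 16 of its 74 CpG dinucleotides were called lower and 15 higher. Its blocks ran both ways, at 8.26% and 27.5% from chr7:130125977 and at 34.1% and 17.6% from chr7:130126471. The block before these, from chr7:130124066 to chr7:130125964, was at 35.7% and 78.9%, with 13 of 20 CpG dinucleotides called lower and 0 higher.

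PEG10, a paternally expressed gene derived from a retrotransposon, shares its promoter on 7q with SGCE, which runs the other way. Its promoter island (chr7:94284388-94286705) was at 57.7% ± 17.7 in OCI-AML3 and 13.9% ± 16.3 in AML5. The test called 102 of the 142 CpG dinucleotides higher in OCI-AML3 and 0 lower. In AML5 82 of the 142 were below 10%, whereas 82 were intermediate in OCI-AML3. Every block of 20 CpG dinucleotides in the promoter window was higher in OCI-AML3. Inside the gene the order turned, as it did upstream at SNRPN. The islands in its exonic sequence (chr7:94293175-94294392 and chr7:94294709-94295129) were at 79.1% and 83.9% in OCI-AML3 and 93.4% and 97.3% in AML5, and the whole window around the inner start had 36 of 108 CpG dinucleotides lower and 0 higher.

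Relative read depth was higher in OCI-AML3 at the MEST and PEG10 islands, whichever way their levels differed. In OCI-AML3 the depth of the MEST and PEG10 promoter islands was 2.82, 2.73 and 3.04 times the autosomal median. In AML5 it was 1.28, 1.36 and 1.5 times. The median of all start-site islands was 1.68 times in OCI-AML3 and 1.19 times in AML5. The MEST island at the upstream isoforms, with close means but blocks that differed both ways, had 3.30 times in OCI-AML3 and 1.36 times in AML5. The MEST island at chr7:130132558-130133164, also with close levels, had 4.83 times in OCI-AML3. The PEG10 island at chr7:94293175-94294392, lower in OCI-AML3, had 3.53 and 1.65 times. Within 1 Mb on either side the median depth was 1.36 and 0.97 times the autosomal median at MEST, and 0.89 and 0.74 times at PEG10. Surroundings leave out CpG islands here and below, so they are not a like comparison for island depth or level. The part of depth in the methylation levels was not tested. In the same 1 Mb surroundings the mean level was lower in OCI-AML3, at 82.3% against 88.9% around MEST, 54.3% against 75.1% around PEG10 and 49.7% against 68.3% around SNRPN. The surroundings of the other 7 genes were lower in OCI-AML3 as well.

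**Figure D1:**
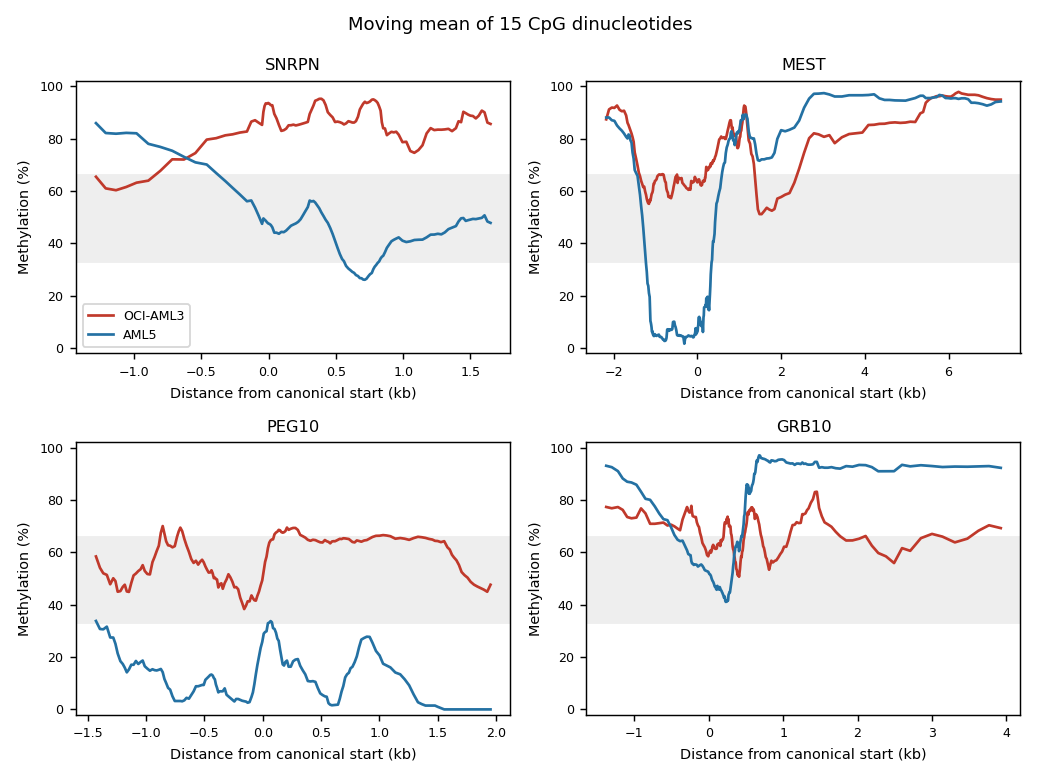
Methylation level (vertical axis, percent, moving mean of 15 CpG dinucleotides) against the distance from the canonical start in the direction of transcription (horizontal axis, kb) at SNRPN, MEST, PEG10 and GRB10, OCI-AML3 in red and AML5 in blue, with 33 to 66% shaded. The red lines run above the blue over the SNRPN, MEST and PEG10 starts, while at GRB10 the lines cross near the start.

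GRB10, an adaptor that dampens insulin and growth factor receptor signalling, lies on 7p and has its imprinted island at chr7:50849588-50851036. The mean level over its 140 CpG dinucleotides was the same in both lines, at 66.1% ± 14.0 in OCI-AML3 and 66.1% ± 21.5 in AML5, yet 23 CpG dinucleotides were called lower in OCI-AML3 and 17 higher. The calls followed position along the island. In AML5 the 2 blocks of 20 CpG dinucleotides on the 3′ side of the gene's start, from chr7:50849336 to chr7:50850009, were at 94.6% and 93.9%. The first of these blocks begins outside the island. The 3 blocks around the start, from chr7:50850274 to chr7:50850838, were at 43.5%, 46.1% and 55.5%. In OCI-AML3 the same blocks were at 61.4% and 69.4%, and then at 71.6%, 61.1% and 68.6%. The blocks between, from chr7:50850012 and from chr7:50850147, were at 84.1% and 59.3% in AML5 and at 73.5% and 54.2% in OCI-AML3. AML5 thus fell along the island toward the start, and the OCI-AML3 blocks showed no such order. The upstream island (chr7:50860095-50861716), at other start sites of the gene, was at 12.0% and 6.43%. The other 8 windows of GRB10, inside the gene, were all lower in OCI-AML3, at 70.2 to 87.2% against 92.0 to 96.7%, and so were the surroundings within 1 Mb, at 63.1% against 76.4%.

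KCNQ1OT1, an antisense RNA that is expressed from the paternal copy and silences its neighbours, starts inside KCNQ1 on 11p. Its island (chr11:2720129-2722235) held 185 CpG dinucleotides and was at 39.7% ± 7.04 in OCI-AML3 and 32.4% ± 11.2 in AML5. Pooling the calls, the levels were 39.9% (39.0 to 40.8%) and 30.7% (29.7 to 31.8%). Only 16 of the 185 CpG dinucleotides were called, 12 of them higher in OCI-AML3, where 17.0% of those in all start-site islands were called. Of the 185, 162 were intermediate in OCI-AML3 and 66 in AML5, the others in AML5 lying mostly just below 33% (quartiles 26.7 and 36.0%). Over the whole control region the means were 40.5% and 32.8% over 192 CpG dinucleotides. Within the control region, 1 of the 6 ZFP57 letter matches was called, at chr11:2720751-2720756, with 19 of 58 calls methylated in OCI-AML3 and 13 of 15 in AML5. The other 2 matches in the printed stretch were at 33.3% and 25% in OCI-AML3 and 23.8% and 52.9% in AML5, on 17 to 52 calls.

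PLAGL1, a zinc finger transcription factor on 6q that is expressed from the paternal copy together with HYMAI, was at 42.2% in OCI-AML3 and 45.6% in AML5 over all its windows, or 35.6% and 44.8% with all calls pooled. The island at the canonical start (chr6:144328816-144330079) had equal means, at 41.0% ± 18.7 in OCI-AML3 and 41.0% ± 24.0 in AML5, with 8 of 128 CpG dinucleotides called lower and 0 higher. The small island next to it (chr6:144328284-144328506) was at 44.9% and 43.6%, with 0 of 10 called. From chr6:144329001 to chr6:144329557 the 4 blocks of 20 CpG dinucleotides were at 28.1 to 35.1% and 25.2 to 32.1%. The far upstream island (chr6:144384497-144386083), at start sites other than the canonical one, was nearly unmethylated, at 0.474% and 4.32%. Its outer neighbour (chr6:144386117-144386353) was at 44.5% and 66.3%, on 10 CpG dinucleotides of which 4 were called lower.

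L3MBTL1, a chromatin reader related to the polycomb group on 20q, is expressed from the paternal copy. An island within the gene (chr20:42143080-42143566, covering coding sequence) was at 36.5% ± 7.13 in OCI-AML3 and 39.3% ± 10.5 in AML5, with 0 of 38 CpG dinucleotides called. The island at the canonical start (chr20:42135614-42136797) was at 21.3% ± 28.3 and 40.3% ± 27.7, with 52 of 101 CpG dinucleotides lower in OCI-AML3 and 8 higher. At its core, from chr20:42136277 to chr20:42136548, the 2 blocks of 20 CpG dinucleotides were at 1.66% and 1.50% in OCI-AML3 and 32.2% and 24.2% in AML5. The adjoining island (chr20:42136817-42137225) was at 33.7% and 57.7%. Within the same gene, then, the inner island was at close levels in both lines, and the core of the start was nearly unmethylated in OCI-AML3 and not in AML5.

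H19, a maternally expressed noncoding RNA on 11p, was lower in OCI-AML3 along its whole length, with 120 of 495 CpG dinucleotides called lower and 8 higher. The control region was at 46.6% ± 23.3 in OCI-AML3 and 64.0% ± 22.0 in AML5, and of its 294 CpG dinucleotides 73 were called lower against 3 higher. With all calls pooled this was 46.0% (45.1 to 46.8%) and 64.8% (63.9 to 65.6%). Each of the 25 blocks of 20 CpG dinucleotides across the gene was lower in OCI-AML3, by 1.70 to 37.6 percentage points, beside surroundings that were lower too (69.8% against 80.6% within 1 Mb). In the control region 181 CpG dinucleotides were intermediate in OCI-AML3, 151 in AML5 and 110 in both. The islands within it, from the side of the H19 transcript outward, were at 56.7% and 63.5%, at 46.4% and 60.5%, and at 33.6% and 49.2%. The annotation used places the canonical H19 start at chr11:2025782, beyond the control region, so its windows cover the control region and the H19 body together.

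At the CTCF letter matches printed above, the level was lower in OCI-AML3 in 4 of 5. The match at chr11:2022010-2022023 was at 47.5% in OCI-AML3 (34 of 72 calls) and 83.6% in AML5 (61 of 73 calls). The match at chr11:2021198-2021211 was at 39.96% and 61.3%. The others were at 43.9% and 43.2%, at 53.6% and 65.5%, and at 49.3% and 53.9%. The test called 2 of the 19 CpG dinucleotides in the matches, 1 in each of the first pair, which is no larger a share than the 17.4% called around all start sites.

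MEG3, a maternally expressed noncoding RNA on 14q, had levels above the intermediate range in both lines at 3 of its 4 islands. The germline control region between DLK1 and MEG3 is not among the regions described here. The islands around the main cluster of starts were at 76.9% and 70.2% (chr14:101290435-101291299), 73.5% and 78.3% (chr14:101291373-101292735), and 58.2% and 71.5% (chr14:101292754-101293220). The last of these had 8 of 21 CpG dinucleotides lower in OCI-AML3 and 1 higher, and 18 intermediate in OCI-AML3 against 8 in AML5. Of the 36 blocks of MEG3, 18 were lower and 18 higher in OCI-AML3.

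PEG3, a paternally expressed zinc finger gene on 19q, was highly methylated at its islands in both lines. They were at 73.9% and 73.4% (chr19:57349677-57350577, an intron) and at 86.3% and 84.8% (chr19:57351121-57352273, around the start), with 11 and 8 CpG dinucleotides higher in OCI-AML3 and 6 and 3 lower. Of the 89 CpG dinucleotides in the latter, 58 were above 90% in OCI-AML3 and 42 in AML5. The 3 windows around inner starts were lower in OCI-AML3, at 29.3%, 46.0% and 20.7% against 52.2%, 60.8% and 44.2%. PEG3 was also the only one of the 10 genes whose windows held the core YY1 motif, YY1 being a zinc finger protein known to bind this intron when it is unmethylated. The 3 matches of the intronic island, on the plus strand and in capitals below, are shown so that their levels can be set beside that of the island.
PEG3 site at chr19:57349686-57349716: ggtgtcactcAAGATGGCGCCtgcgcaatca
PEG3 site at chr19:57350402-57350432: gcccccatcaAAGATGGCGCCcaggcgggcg
PEG3 site at chr19:57350486-57350516: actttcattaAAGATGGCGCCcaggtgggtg
The single CpG dinucleotide of each match was at 77.3% and 57.1%, at 53.7% and 70.3%, and at 11.4% and 35.9%, and none of the 3 was called. Among protein-coding start sites, 4.39% of windows of this length held at least 1 match and 0.0149% held 3 or more. The match at chr19:57350910-57350920, between the islands, was the only YY1 match called, at 78.6% in OCI-AML3 and 48.5% in AML5.

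**Figure D2:**
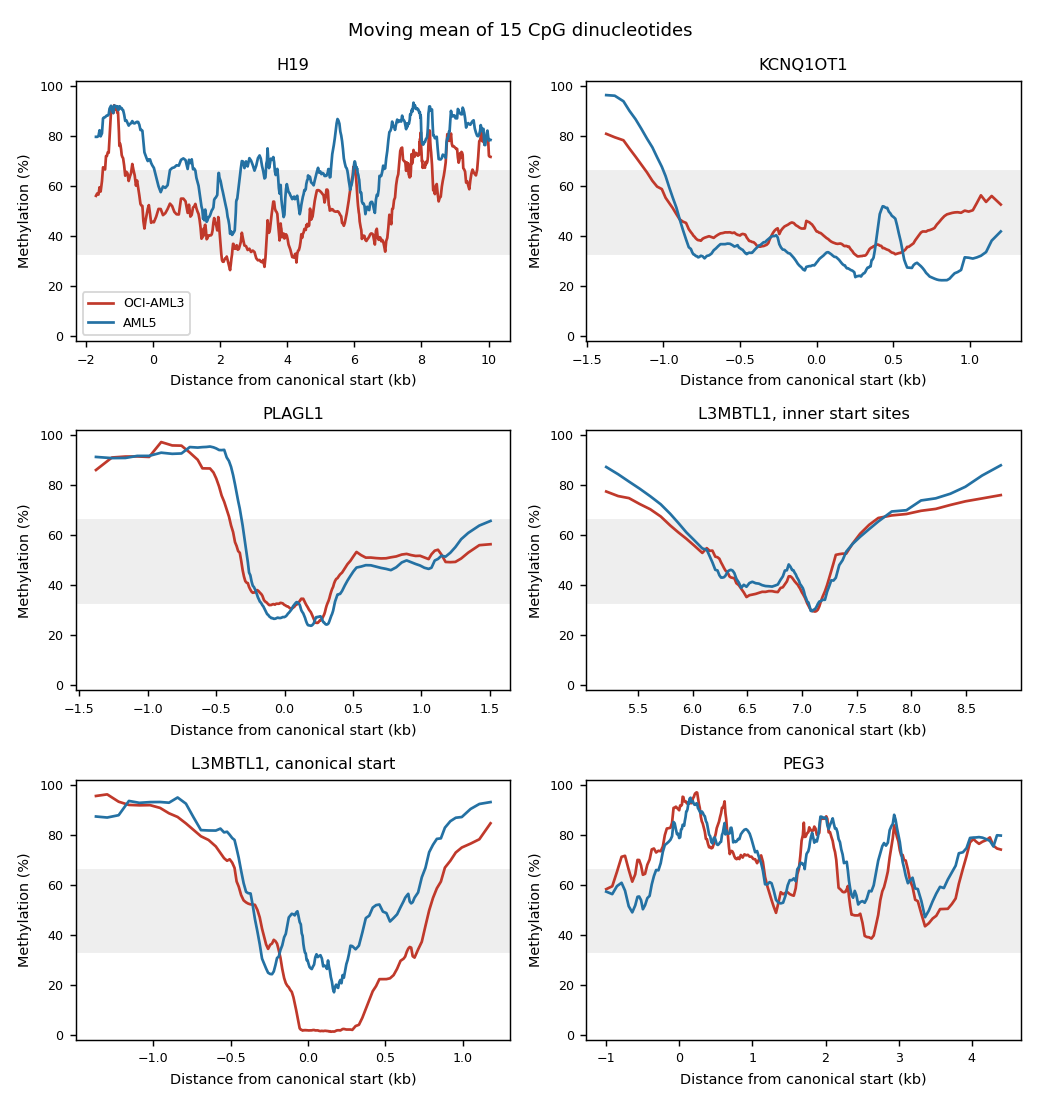
Methylation level (vertical axis, percent, moving mean of 15 CpG dinucleotides) against the distance from the canonical start in the direction of transcription (horizontal axis, kb) at H19, KCNQ1OT1, PLAGL1, both L3MBTL1 islands and PEG3, OCI-AML3 in red and AML5 in blue, with 33 to 66% shaded. At H19 the red line lies below the blue nearly throughout, at PLAGL1 and the inner L3MBTL1 starts the lines overlap, and at the canonical L3MBTL1 start the red line falls close to 0.

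The ZFP57 letters TGCCGC were frequent in several of these islands, whatever their level. The main GRB10 island held 8 matches, a number reached by 0.0896% of windows of the same length at protein-coding starts. The MEST island at the canonical start held 6 (0.224%), as did PLAGL1 (0.473%), the PEG3 start island (0.423%) and KCNQ1OT1 (1.11%). SNRPN held 3 (8.68%), and the PEG10 promoter island held 0, where 57.8% of windows of its length held at least 1. These windows, like those for the CTCF and YY1 motifs, were not matched to CpG islands in CpG density. The letters TGCCGC hold a CpG dinucleotide themselves, so the shares do not separate the letters from base composition. The H19 control region held 12, of which 5 lay inside CTCF matches, since the letters overlap. The mean level at the matches was 86.0% and 52.1% in the SNRPN island, 65.1% and 26.9% in MEST, 73.3% and 72.7% in GRB10, 32.0% and 32.97% in PLAGL1 and 39.4% and 41.7% in KCNQ1OT1, with OCI-AML3 given first. A match describes the sequence and does not show that the protein is bound.

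Other genes known to be imprinted were compared in the same way. Islands overlapping those of the 10 genes were left out, so shared islands, such as the promoter shared by PEG10 and SGCE, are not counted. Of 69 islands at 31 such genes, 6 were intermediate in both lines (8.70%, against 3.67% of all start-site islands). OCI-AML3 was lower by at least 20 percentage points in 9 and higher by as much in 0, where 8.95% and 3.04% of all start-site islands were. It was lower by any amount in 53, where 73.4% of all start-site islands were. Just inside the limit, the GNAS island at chr20:57415034-57417328 was at 82.6% in OCI-AML3 and 63.3% in AML5. Of its 186 CpG dinucleotides, 91 were called higher and 7 lower. The RAS-related tumor suppressor DIRAS3 was at 4.24% in OCI-AML3 and 45.5% in AML5, ZDBF2 was at 4.07% and 54.5%, and the islands at ZNF331 starts were at 9.14% and 54.3% and at 4.97% and 60.4%. In these, AML5 was intermediate and OCI-AML3 nearly unmethylated. NAP1L5 was intermediate in OCI-AML3 at 57.4% and almost fully methylated in AML5 at 95.2%. The remaining differences were at TRAPPC9 (3.12% and 93.4%), CDKN1C (27.0% and 72.6%, on 10 CpG dinucleotides), GNAS (50.6% and 73.3%) and PEG13 (44.2% and 66.7%). The islands intermediate in both lines were at MCTS2, ZNF597, GNAS, RTL1, PPP1R9A and DDC. MCTS2 was the most even of them, at 45.5% ± 4.53 in OCI-AML3 and 50.2% ± 4.24 in AML5, with 0 of 33 CpG dinucleotides called.

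**Figure D3:**
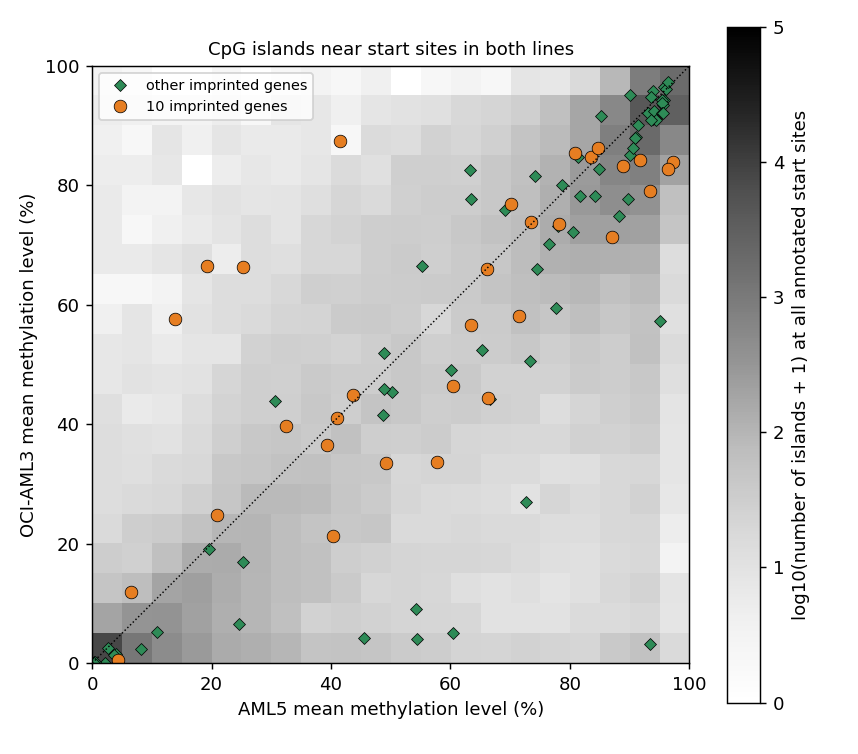
Mean methylation level of CpG islands in AML5 (horizontal axis, percent) and OCI-AML3 (vertical axis, percent) for the 10 imprinted genes (orange circles), other imprinted genes (green diamonds) and all 39117 islands near start sites (grey, number of islands on a log10 scale), with a dotted line of equal levels. The 4 orange points far above the line are SNRPN, 2 islands of MEST and PEG10, and the green points of DIRAS3, ZDBF2 and ZNF331 lie below 10% in OCI-AML3 at 45.5 to 60.4% in AML5.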

How the data were processed

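Genomic DNA of each line was bisulfite converted and sequenced by the authors with paired reads of 100 bases. They aligned the reads to hg19 with Bismark, with Bowtie 0.12.8 in the submitters' processing notes, and deposited, for every CpG dinucleotide, the counts of calls that read it as methylated and as unmethylated, both strands summed and nothing normalized. Duplicate removal is not stated, so amplified copies may be counted more than once. The annotation was GENCODE lifted to GRCh37 and the sequence GRCh37.

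The members and lists were chosen with earlier results of these data known. All listed genes and control regions are described, and other imprinted and imprint maintenance genes are named where an island was intermediate in both lines or differed by at least 20 percentage points. Windows reached 2 kb on either side of every annotated TSS. A CpG dinucleotide was used where each library had more than 5 reads on it. CpG islands had at least 200 bp, a GC content of 50% and an observed over expected CpG ratio of 0.6. Single CpG dinucleotides were compared with the two-sided Fisher's exact test, adjusted over all nuclear ones at 0.05, which was tested on simulated data. No test between the lines was possible with 1 library each. Alternatives changed the reads required, the windows, the averaging, the islands and the limits. Python 3.11.15, numpy 2.4.6, scipy 1.17.1, pandas 2.3.3 and numba 0.67.0 were used.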

Additional observations from a re-analysis of the deposited data

How the results depend on the processing

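With windows around the most upstream TSS only, the test called 441 CpG dinucleotides of the imprinted regions, 27.3% of the 1618 tested, and the difference of the mean level changed sign at SNRPN (-9.38 percentage points), MEST (-5.48), GRB10 (4.52), MEG3 (1.12) and PEG3 (2.53), since such windows leave out the imprinted island or many inner starts. No other alternative changed the sign of a gene's mean difference. Taking 20 to 80% as intermediate gave 17 islands intermediate in both lines, with 12.4% of all start-site islands. Islands of at least 500 bp with stricter base composition left 13 islands, of which 1 (PLAGL1) was intermediate in both lines and 3 (SNRPN, MEST and PEG10) differed by at least 20 percentage points. Shares of all start-site islands under this stricter definition were not computed, so these counts have no background beside them. The number intermediate in both lines, 7 of 31 in the main setting, thus depended on the island definition. Counts at 10 reads, 1 kb windows or a share of all calls stayed within 1.5 times the reported ones. Averaging over all calls moved the mean difference by more than that at PLAGL1 (-3.36 to -9.26 percentage points), L3MBTL1 (-7.60 to -13.8), GRB10 (-8.65 to -13.9) and PEG3 (-6.25 to -3.76), with no change of sign. Windows of 1 kb did so at SNRPN (17.8 to 26.9), GRB10 (-8.65 to -5.70) and MEG3 (-1.44 to -2.26), also with no change of sign. At a difference of 30 percentage points, 4 of the 31 islands remained, all higher in OCI-AML3, where 6.73% of all start-site islands differed by as much in either direction. No paired analysis was possible because each line had 1 library, and no library could be left out. Depth limits single CpG dinucleotides to shares above about 10%.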

Other observations

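The genes that keep imprints were largely unmethylated at their canonical starts in both lines. Of 10 such genes with an island at the canonical start, 9 were below 33% in both, the highest at 7.24% in OCI-AML3 and 11.3% in AML5. The share among all islands at canonical starts was not computed, so this count has no background. Of all 34 islands of these genes, 10 were below 33% in both lines, where 34.2% of all start-site islands were. ZFP57, which is active in the egg and early embryo, was the exception, at 85.5% ± 16.5 in OCI-AML3 and 63.1% ± 17.7 in AML5, and 36 of its 74 CpG dinucleotides were called higher in OCI-AML3 and 1 lower. Over all 34 islands of these genes, 25 were lower in OCI-AML3, 3 of them by at least 20 percentage points, shares close to the 73.4% and 8.95% of all start-site islands. These 3 were at YY1 (13.2% and 93.2%), SETDB1 (28.8% and 93.8%) and UHRF1 (27.5% and 56.5%), all outside the canonical start.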
